A study of Mus musculus with 18 samples.

Results

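The chemokine system was followed through the RNA sequencing of MC38 cells and MC38 tumours in which Mbtps1 was depleted. Members were the genes of the deposited table whose symbols name a chemokine ligand (Ccl, Cxcl, Xcl or Cx3cl and a number) or a chemokine receptor (Ccr, Cxcr, Xcr, Cx3cr or Ackr and a number), and 48 of the 15596 genes are described, of which 31 were ligands and 17 were receptors. MC38 is a mouse colon adenocarcinoma line that grows in C57BL/6 mice. The 4 groups were cultured MC38 cells labelled Mbtps1 WT (n = 3), cultured MC38 cells labelled Mbtps1 KD (n = 3), tumours of WT cells in wild-type C57BL/6 mice (n = 5) and tumours of KD cells in the same kind of host (n = 5), called WT and KD below. KD stands for knockdown; in the series design the cultured cells are described as knockout cells. The reagent, the number of clones, the time of harvest and the age of the mice were not stated in the labels. The labels do not say whether libraries came from separate cultures or mice, so each p-value reflects the spread among libraries, part of which may be technical. Total counts per library were 14240353 to 15515405 for cells and 19630410 to 32655739 for tumours.

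Chemokines are small secreted proteins that direct the migration of leukocytes along a gradient towards their source. They bind G protein-coupled receptors on leukocytes and other cells, and a group of atypical receptors (Ackr) binds chemokines without classical G protein signalling and removes them. In tumours the ligands Cxcl9 and Cxcl10 are known for drawing T cells and natural killer (NK) cells through Cxcr3, Ccl2 and Ccl7 for drawing monocytes through Ccr2, Cxcl1 for drawing neutrophils through Cxcr2, and Xcl1 for drawing cross-presenting dendritic cells through Xcr1.

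Many chemokine genes stand in clusters and share short control motifs near their start. The stretches shown here are of Cxcl1 and Cxcl10, which were higher in KD cells and in KD tumours, and of Cxcl2 and Cxcl3, the cluster neighbours of Cxcl1, which were listed at 0 in cultured cells. They come from the RefSeq promoter table for GRCm38.p6, 5′ to 3′ on the strand of the gene, and end before the start of the transcript; capitals mark matches to the NF-kappa-B consensus and, for the match nearest the 5′ end of the Cxcl10 stretch, to the interferon-stimulated response element (ISRE).
Cxcl1 (chr5:90891164-90891194, plus strand): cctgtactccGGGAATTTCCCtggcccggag
Cxcl2 (chr5:90903792-90903822, plus strand): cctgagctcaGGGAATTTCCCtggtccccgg
Cxcl3 (chr5:90786018-90786048, plus strand): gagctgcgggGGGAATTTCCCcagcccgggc
Cxcl10 (chr5:92348973-92349112, minus strand): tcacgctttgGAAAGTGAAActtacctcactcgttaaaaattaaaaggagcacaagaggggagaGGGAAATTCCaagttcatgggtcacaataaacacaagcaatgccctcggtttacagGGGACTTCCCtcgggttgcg
The capital runs of Cxcl1, Cxcl2 and Cxcl3 are the same letters, each run being 2 overlapping matches on the consensus, while Cxcl10 holds 2 separate NF-kappa-B matches and the ISRE match.

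A total of 38 members had an entry in the promoter table. The 10 without one were Ccl2, Ccl4, Ccl5, Ccl7, Ccl11, Ccr7, Ccr10, Cxcl5, Cxcl16 and Cxcr5. In the 250 bases before the start, searched on both strands, 6 of the 38 matched the NF-kappa-B consensus (Ackr2, Ccl9, Cxcl1, Cxcl2, Cxcl3 and Cxcl10), against 3.90% of all 32851 windows in the table. The ISRE pattern, GAAA followed after any 2 letters by another GAAA, matched in 3 (Ccl19, Cxcl10 and Cxcl14), against 2.98% of windows. The pattern TTCNNNGAA, bound by STAT factors and called GAS, matched in 2 (Ccl17 and Cxcl14), against 7.02% of windows. Among the members with an entry that were higher in KD tumours, Cxcl1, Cxcl10 and Cxcl14 had a match. No pattern matched in Ccl3, Ccl8, Ccl21a, Ccl27a, Cxcl9, Cxcl13, Cxcr6, Xcl1 or Xcr1, which were also higher there. Members were counted per gene, with a match in any window of the gene, and all entries per window, so the units differ. Cxcl1, Cxcl2 and Cxcl3 are cluster neighbours with the same matched letters. A match describes the letters of the window, and it was not used to choose or group genes in any test.

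The depleted gene followed its labels. Mbtps1 encodes site-1 protease, which cuts membrane-bound transcription factors in the secretory pathway. Its level, in counts scaled to the library total (CPM), was 129, 135 and 118 in the WT cells and 37.0, 35.7 and 34.8 in the KD cells, so the log2 fold change was -1.84 (SE 0.094, adjusted p = 3.10e-06). In tumours it was 114, 110, 130, 129 and 122 CPM in WT and 50.1, 41.4, 57.1, 56.3 and 54.1 CPM in KD, and the log2 fold change was -1.21 (SE 0.093, adjusted p = 1.16e-05). Of the 9 epithelial markers set for the line, 3 were in the table: Epcam and Cdh1 were listed at 0 in cultured cells, and Krt8 had a mean of 2.77 CPM in WT and 2.41 CPM in KD cells and was listed at 0 in tumours. The leukocyte gene Ptprc, the T cell gene Cd3e, the NK cell gene Ncr1 and the macrophage gene Csf1r were all listed at 0 in the 6 cell libraries.

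Cultured cells carried few members. Counts were listed for 11 of the 48, and the other 37 (23 ligands and 14 receptors) were listed at 0 in all 6 cell libraries. The lowest non-zero sum over the 6 libraries of any gene in the table was 13 counts, so a gene listed at 0 may have had a few counts. A ligand was called expressed in culture at a mean of at least 1 CPM over the 6 libraries. That held for 8 ligands (Ccl2, Ccl5, Ccl7, Ccl25, Ccl28, Cx3cl1, Cxcl1 and Cxcl10), of which Ccl28 was nearest the cut with means of 1.49 CPM in WT and 1.182 CPM in KD, and the other 23 ligands were all listed at 0. The receptors with counts in cells were Ackr3, Ccr10 and Cxcr6, the last with a mean of 0.158 CPM in WT and 0.502 CPM in KD and too low to test.

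In KD cells 5 of the 10 members tested (50%) were higher than in WT cells, where 3.76% of all 11905 genes tested were higher. They were the monocyte attractants Ccl2 and Ccl7, the neutrophil attractant Cxcl1, and Ccl5 and Cxcl10, both attractants of T cells and NK cells. The median log2 fold change was 0.70 over the 8 ligands and 0.01 over all genes. Among the 10 members 0 passed as lower by edgeR, where 5.57% of genes were lower; 0 were lower at an unadjusted p under 0.05, and DESeq2 called 0 as well.

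Ccl7 was at 15.7, 12.4 and 15.7 CPM in WT cells and at 38.7, 37.4 and 32.0 CPM in KD cells, with a log2 fold change at 1.29 (SE 0.14, adjusted p = 0.000378). Every KD library lay above every WT library, with the mean rising from 14.6 ± 1.91 to 36.0 ± 3.55 CPM (SD, n = 3). Cxcl10 was at 37.9, 39.2 and 35.5 CPM in WT and at 81.2, 77.6 and 66.6 CPM in KD cells, again without overlap (log2 fold change 0.99, SE 0.11, adjusted p = 0.000378). The exons of Cxcl10 overlap those of Art3 on the other strand, and the sources used here do not say whether counting used strand.

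Cxcl1 was at 7.77, 7.65 and 8.01 CPM in WT cells and at 17.1, 14.2 and 12.2 CPM in KD cells. The groups did not overlap, and the log2 fold change was 0.88 (SE 0.17, adjusted p = 0.00874). Ccl5 was the lowest of the 5, at 2.45, 1.72 and 0.983 CPM in WT and 6.11, 4.09 and 3.74 CPM in KD cells (log2 fold change 1.42, SE 0.34, adjusted p = 0.0238). Ccl2, the most abundant per kilobase of exon in culture, was at 60.6, 64.8 and 61.8 CPM in WT and at 92.7, 80.0 and 80.4 CPM in KD cells (log2 fold change 0.43, SE 0.096, adjusted p = 0.0199). Neither gene's groups overlapped.

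The calls of Ccl7 and Cxcl10 passed in every setting tried, including each left-out library. KD replicate 1 was the highest library of its group for each of the 5 ligands. Without it 2 of the 5 passed: the adjusted p was 0.114 for Ccl2, 0.105 for Ccl5 and 0.0589 for Cxcl1. Without WT replicate 1 it was 0.114 for Ccl2 and 0.0519 for Cxcl1, without WT replicate 2 it was 0.0614 for Ccl2 and 0.0778 for Ccl5, and without WT replicate 3 it was 0.0685 for Ccl5.

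Among the other members tested in cells, the membrane-bound ligand Cx3cl1 was at 1.61, 1.85 and 1.19 CPM in WT and at 2.46, 2.41 and 1.87 CPM in KD cells (log2 fold change 0.52, adjusted p = 0.300). Ccl25, a ligand of the gut-homing receptor Ccr9, was at 15.1, 14.1 and 16.8 CPM in WT and at 24.4, 21.03 and 12.8 CPM in KD cells (log2 fold change 0.33, adjusted p = 0.326); without KD replicate 3 its adjusted p was 0.0201. Its exons overlap those of Elavl1 on the other strand. Ccl28, a mucosal ligand of Ccr10, had a log2 fold change of -0.34 (adjusted p = 0.576).

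Of the receptors, 2 were tested in cells and 0 were called by edgeR or by DESeq2, with 1 (Ccr10) at an unadjusted p under 0.05. Ackr3, an atypical receptor that binds Cxcl12, was at 8.47, 8.25 and 7.94 CPM in WT and at 8.97, 9.51 and 8.57 CPM in KD cells (log2 fold change 0.12, SE 0.16). Ccr10 was at 1.26, 0.924 and 1.40 CPM in WT and at 1.99, 2.21 and 2.19 CPM in KD cells (log2 fold change 0.82, adjusted p = 0.122). In cells the groups of Ackr3, Ccr10, Cx3cl1 and Cxcr6, none of them called, did not overlap either. The share of all genes without overlap is not given here, so a lack of overlap only describes the libraries of a gene.

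**Figure D1:**
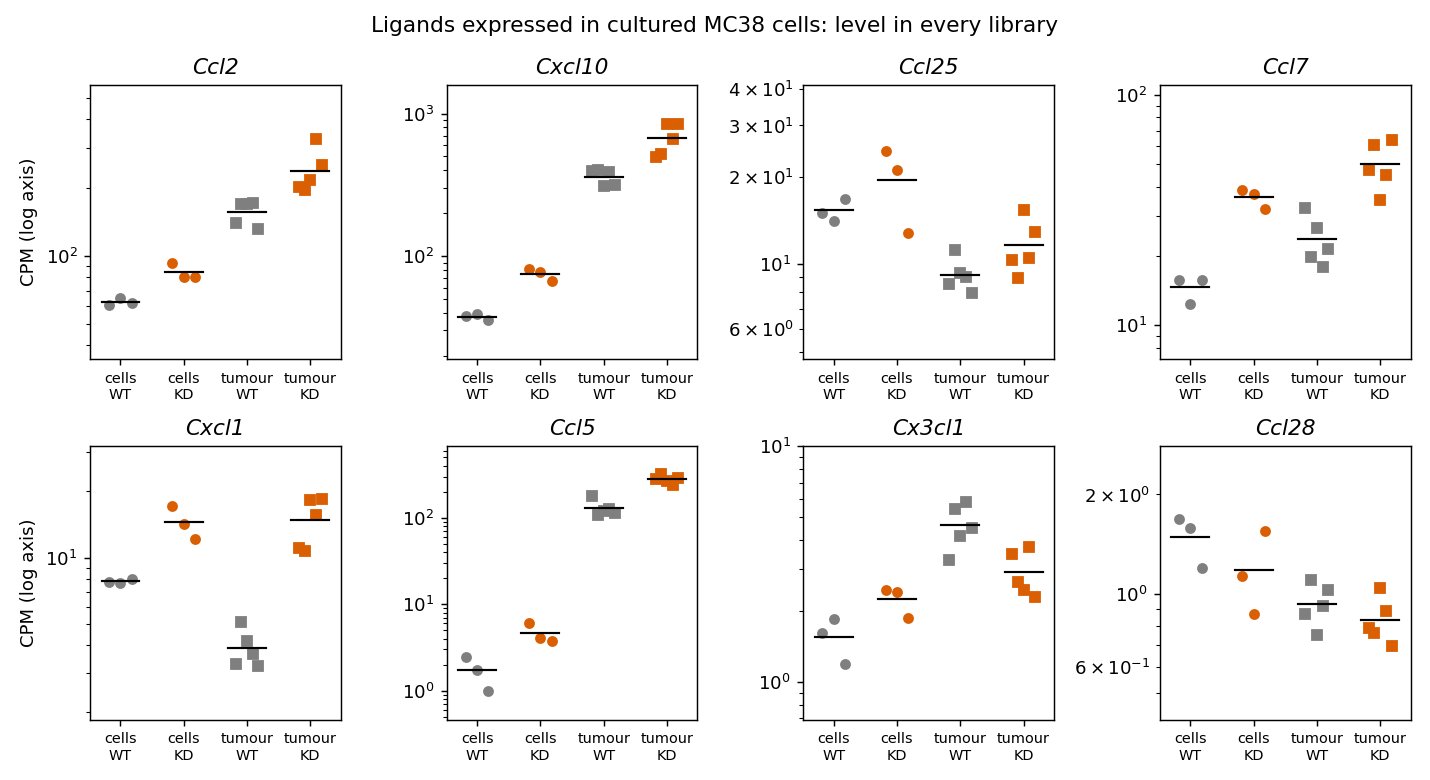
Level of the 8 ligands expressed in cultured MC38 cells, in CPM on a log axis, 1 panel per ligand and 1 point per library (3 per group in cells, 5 per group in tumours); horizontal lines are group means. Ccl2, Cxcl10, Ccl7, Cxcl1 and Ccl5 have every KD library above every WT library both in cells and in tumours. Cx3cl1, not called in cells, also has every KD library above every WT library there. It has means of 1.55 and 2.25 CPM in WT and KD cells and of 4.63 and 2.92 CPM in WT and KD tumours.

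Tumours held counts for all 48 members, and 39 passed the filter on low counts. In KD tumours 17 of the 39 were higher and 4 were lower than in WT tumours, where 20.1% of the 13997 genes tested were higher and 18.3% were lower. The shares of the members tested were thus 43.6% higher and 10.3% lower. By role, 15 of 27 ligands and 2 of 12 receptors were higher, and 3 ligands and 1 receptor were lower. Ccl21a, Ccl27a and Cxcl13, counted among the higher ligands, would not have passed the filter on their WT tumours alone. Their entry into the test thus depended on their level in KD tumours, as did that of Cxcl2, a ligand that was not called. The median log2 fold change was 0.72 over the ligands tested, -0.05 over the receptors tested and 0.02 over all genes. The median of the ligands is the value of Cxcl2 itself. Cell type markers differed between the same tumours: Ptprc, a gene of all leukocytes, was at 49.4 CPM in WT and 102 CPM in KD (log2 fold change 1.06), 9 of 9 NK cell markers and 7 of 11 T cell markers were higher, and 2 of 11 macrophage and monocyte markers were higher. In bulk RNA, more cells of a type and more RNA per cell cannot be told apart, and the part of cell numbers in the changes below was not tested.

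The 5 ligands that rose in KD cells also rose in KD tumours, in libraries separate from those of the cultures. They make up 5 of the 15 ligands that rose in tumours. Of all genes higher in KD cells and tested in tumours, 120 of 433 (27.7%) were higher in KD tumours. Cxcl1 was at 3.30, 5.09, 4.19, 3.67 and 3.21 CPM in WT tumours and at 11.01, 10.7, 18.3, 15.7 and 18.4 CPM in KD tumours (log2 fold change 1.95, SE 0.19, adjusted p = 4.42e-05). The lowest KD tumour was above the highest WT tumour, and no tested member had a larger fold change.

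Ccl5 was at 179, 107, 121, 126 and 113 CPM in WT tumours and at 279, 320, 267, 242 and 290 CPM in KD tumours (log2 fold change 1.14, SE 0.13, adjusted p = 0.000123). Ccl7 was at 32.4, 19.7, 26.5, 17.9 and 21.5 CPM in WT and at 47.3, 60.5, 35.2, 44.8 and 63.7 CPM in KD tumours (log2 fold change 1.11, SE 0.18, adjusted p = 0.000693). For both, WT replicate 1 was the highest WT tumour and still lay below every KD tumour. Cxcl10 was at 392, 399, 310, 387 and 314 CPM in WT and at 498, 522, 847, 658 and 840 CPM in KD tumours (log2 fold change 0.92, SE 0.16, adjusted p = 0.00109). Ccl2 was at 139, 169, 170, 170 and 131 CPM in WT and at 201, 195, 215, 327 and 250 CPM in KD tumours (log2 fold change 0.62, SE 0.13, adjusted p = 0.00323). KD replicate 4 was the highest tumour for Ccl2, and neither gene's groups overlapped.

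The summed level of the 8 ligands expressed in culture was 142 ± 1.13 CPM in WT cells and 237 ± 26.3 CPM in KD cells (SD, n = 3). In tumours it was 687 ± 65.6 CPM in WT and 1271 ± 182 CPM in KD (SD, n = 5). The genes shifted unequally between culture and tumour: in WT libraries Ccl5 had a mean of 1.72 CPM in cells and 129 CPM in tumours, while Cxcl1 had 7.81 CPM in cells and 3.89 CPM in tumours. Cells and tumours were not tested against each other here.

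Whether the KD effect differed between tumours and culture was tested for the 11 members with counts in both. The effect on Cxcl1 was larger in tumours, by 1.09 on the log2 scale (SE 0.28, adjusted p = 0.0112). The effect on Cx3cl1 was lower in tumours, by -1.16 (SE 0.34, adjusted p = 0.0223). Over all 12581 genes in this test 12.7% had a higher and 9.95% a lower effect in tumours, shares near those of the members. The differences for Ccl2, Ccl5, Ccl7 and Cxcl10 were 0.21, -0.27, -0.16 and -0.06, each smaller than its standard error except for Ccl2 (SE 0.19), and none passed.

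Cx3cl1, a ligand that also acts as an adhesion molecule on the cell surface, was the member expressed in culture that fell in tumours. It was at 3.30, 5.41, 4.15, 5.81 and 4.49 CPM in WT tumours and at 3.49, 2.65, 2.45, 3.73 and 2.29 CPM in KD tumours (log2 fold change -0.66, SE 0.20, adjusted p = 0.0186). The groups overlapped through WT replicate 1, and without WT replicate 4 the adjusted p was 0.0557. Its difference between tumours and cells had an adjusted p of 0.0536 without KD cell replicate 1 and of 0.0689 without WT cell replicate 3. The effect on Ccr10 differed by -0.82 (SE 0.47, adjusted p = 0.215), with an adjusted p of 0.0446 without KD tumour replicate 4.

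The 23 ligands listed at 0 in culture had a summed level of 573 ± 130 CPM in WT tumours and 1196 ± 74.5 CPM in KD tumours (SD, n = 5). Of these ligands 19 were tested in tumours, where 10 (52.6%) were higher, 2 (10.5%) were lower and 7 did not pass. Their median log2 fold change was 0.72. The 10 include Ccl21a, Ccl27a and Cxcl13, which passed the filter on low counts only through their KD tumours. Cxcl2, not called, entered in the same way, and the median of 0.72 is its value. The 8 ligands expressed in culture had 5 (62.5%) higher, 1 (12.5%) lower and a median of 0.77 in the same tumours. Over all genes 20.1% were higher and 18.3% were lower, with a median of 0.02. The medians of the sets split by culture were close, but that of the ligands listed at 0 in culture depends on members that entered through their KD tumours. The difference between the sets was not tested.

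Cxcl9, an interferon gamma-induced ligand of Cxcr3, rose from 375, 176, 211, 267 and 235 CPM in WT tumours to 772, 821, 679, 724 and 772 CPM in KD tumours (log2 fold change 1.59, SE 0.16, adjusted p = 5.69e-05). The KD libraries were close to each other, with a mean of 753 ± 54.0 CPM, and all lay above the highest WT tumour. Xcl1, made by NK cells and CD8 T cells, was at 5.08, 3.35, 3.63, 3.97 and 3.18 CPM in WT and at 7.94, 13.6, 12.9, 10.4 and 13.3 CPM in KD tumours (log2 fold change 1.62, SE 0.18, adjusted p = 8.86e-05). Its groups did not overlap.

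Ccl3 and Ccl4, inflammatory CC ligands, rose together. Ccl3 was at 4.40, 2.29, 2.25, 3.46 and 2.54 CPM in WT tumours and at 7.56, 10.8, 7.69, 7.95 and 11.8 CPM in KD tumours (log2 fold change 1.64, SE 0.21, adjusted p = 0.000215). Ccl4 was at 7.28, 4.40, 3.83, 7.34 and 5.33 CPM in WT and at 14.5, 14.8, 10.04, 14.1 and 15.05 CPM in KD tumours (log2 fold change 1.297, SE 0.19, adjusted p = 0.000380). Both genes had every KD tumour above every WT tumour.

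Ccl8, another inflammatory CC ligand, was at 95.05, 46.4, 44.0, 47.6 and 41.4 CPM in WT and at 122, 123, 152, 144 and 176 CPM in KD tumours (log2 fold change 1.40, SE 0.21, adjusted p = 0.000456). WT replicate 1 stood apart from the other 4 WT tumours for Ccl8 and still lay below the lowest KD tumour. Cxcl14, a ligand found in many epithelia, was at 9.30, 9.40, 8.85, 7.998 and 9.68 CPM in WT and at 13.2, 16.8, 10.9, 14.8 and 12.8 CPM in KD tumours (log2 fold change 0.61, SE 0.12, adjusted p = 0.00238). Its groups did not overlap.

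The other 4 risers were low, and Cxcl13, Ccl21a and Ccl27a passed the filter on low counts only through their KD tumours. Ccl11, an attractant of eosinophils, was between 1.43 and 2.37 CPM in WT and between 4.10 and 4.95 CPM in KD tumours (log2 fold change 1.15, SE 0.16, adjusted p = 0.000288). Cxcl13, the ligand of the B cell receptor Cxcr5, was between 0.388 and 1.01 CPM in WT and between 1.16 and 3.31 CPM in KD tumours (log2 fold change 1.73, SE 0.33, adjusted p = 0.00178). Neither gene's groups overlapped.

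Ccl21a, a lymphoid ligand of Ccr7, was at 1.05, 0.963, 0.829, 0.408 and 0.742 CPM in WT and at 1.58, 2.43, 1.07, 5.15 and 1.59 CPM in KD tumours (log2 fold change 1.54, SE 0.40, adjusted p = 0.00925). KD replicate 4 was the highest, and the lowest KD tumour was just above the highest WT tumour. Mouse Ccl21 and Ccl27 genes have near-identical copies, so their counts may be shared between copies. Ccl27a, a skin ligand of Ccr10, was between 0.158 and 0.687 CPM in WT and between 0.499 and 1.29 CPM in KD tumours (log2 fold change 1.12, SE 0.41, adjusted p = 0.0460), and its groups overlapped. Its call was lost in 6 of the 10 fits with a tumour left out (adjusted p = 0.11 without WT replicate 3, 0.0927 without WT replicate 4, 0.109 without WT replicate 5, 0.0505 without KD replicate 2, 0.114 without KD replicate 3 and 0.113 without KD replicate 5), without the filter on low counts (0.0532) and with a block on replicate number (0.111). Its exons also overlap those of Il11ra1 on the other strand. Its copy Ccl27b had 0.5 to 0.75 of its counts in each tumour and was too low to test.

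Ccl17 and Ccl22, the ligands of Ccr4 that mature dendritic cells make, fell. Ccl22 was at 6.96, 5.50, 7.98, 5.71 and 4.10 CPM in WT and at 2.702, 1.66, 3.86, 2.75 and 2.78 CPM in KD tumours (log2 fold change -1.11, SE 0.22, adjusted p = 0.00242). Every KD tumour was below every WT tumour for Ccl22. Ccl17 was at 2.24, 2.43, 3.99, 1.78 and 0.706 CPM in WT and at 0.748, 0.539, 0.949, 0.444 and 0.613 CPM in KD tumours (log2 fold change -1.70, SE 0.39, adjusted p = 0.00479). WT replicate 5 was the one WT tumour within the KD range for Ccl17. The receptor Ccr4 has no row in the table used here. Of the dendritic cell markers, Clec9a and Batf3 were higher in KD tumours (log2 fold changes 0.95 and 0.82), while Flt3, Zbtb46 and Itgax did not pass (-0.24, 0.02 and 0.28). Clec9a and Zbtb46 are not clear of the tumour cells, with means of 21.8 and 9.75 CPM in WT cultured cells.

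The ligands that did not pass included several of high level. Cxcl16, the membrane-bound ligand of Cxcr6, was at 200, 125, 165, 144 and 132 CPM in WT and at 190, 182, 127, 171 and 151 CPM in KD tumours, with overlapping groups (log2 fold change 0.12, SE 0.13); its exons overlap those of Zmynd15 on the other strand. The myeloid ligands Ccl6, Ccl9 and Ccl12 had log2 fold changes of -0.15, -0.14 and -0.24. Cxcl12, the ligand of Cxcr4, was at 6.46, 2.57, 5.37, 4.53 and 3.71 CPM in WT and at 9.19, 6.29, 3.77, 10.2 and 6.62 CPM in KD tumours (log2 fold change 0.67, SE 0.26, adjusted p = 0.0569). Cxcl12 did pass with DESeq2 (adjusted p = 0.0347), without KD replicate 3 (0.0142) and without WT replicate 1 (0.0317).

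Cxcl2, a neutrophil attractant like Cxcl1, passed the filter on low counts only through its KD tumours and is given as a value only. It had a log2 fold change of 0.72 (adjusted p = 0.120), and 1.09 without WT replicate 5 (adjusted p = 0.0321). Ccl25 had 0.35 (adjusted p = 0.0891; 0.0481 without WT replicate 2), Ccl1 had 0.56 and Ccl28 had -0.13. Ligands too low to test were Ccl19 (means of 0.260 CPM in WT and 0.452 CPM in KD), Ccl27b (0.240 and 0.443 CPM), Cxcl3 (0.154 and 0.265 CPM) and Cxcl5 (0.245 and 0.244 CPM).

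**Figure D2:**
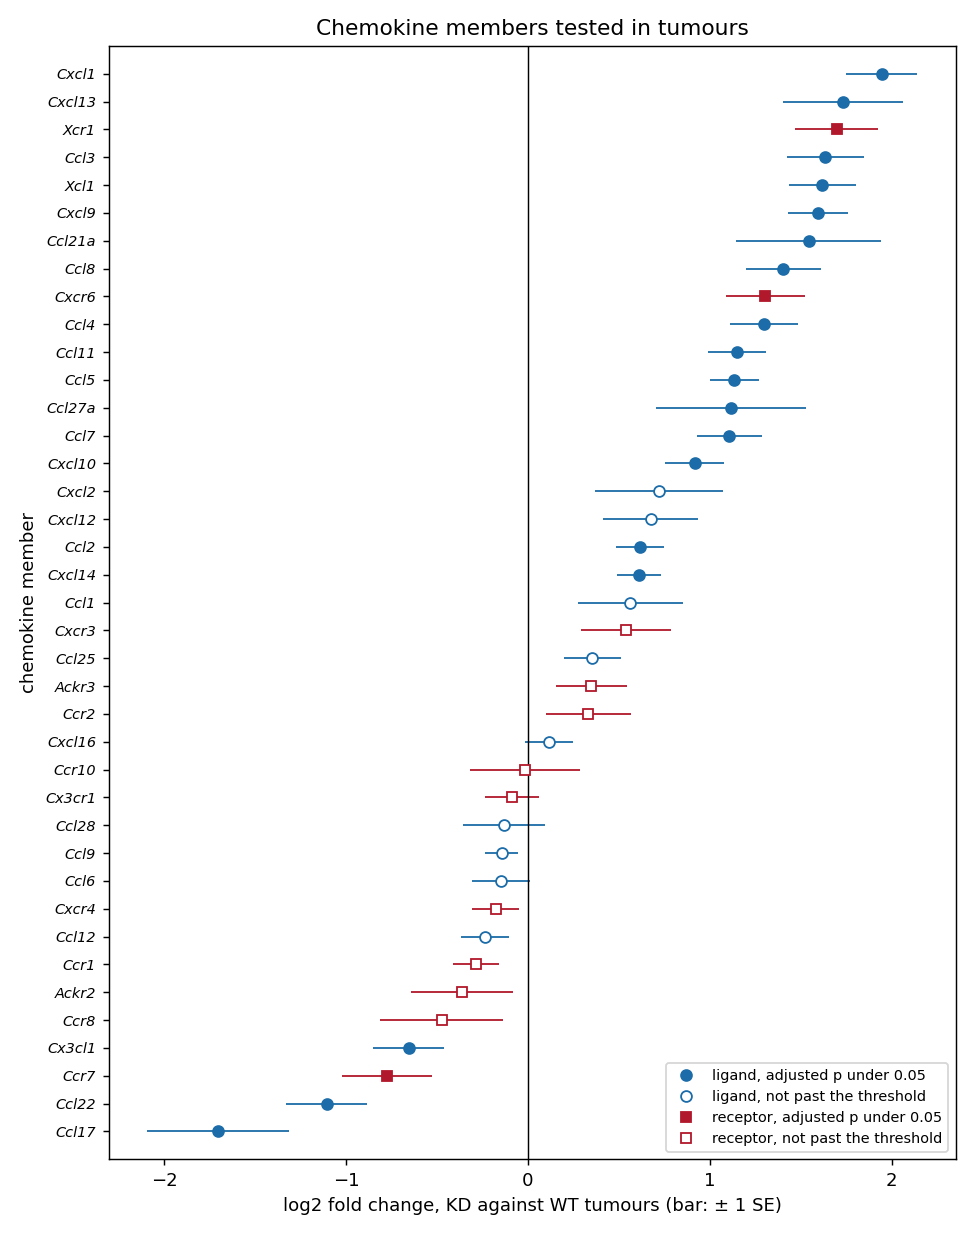
Log2 fold change of KD against WT tumours (x axis) for the 39 members tested, ordered by size, with bars of 1 SE; circles are ligands, squares are receptors and filled symbols passed at an adjusted p under 0.05. The filled symbols run from Cxcl1 at 1.95 to Ccl17 at -1.70, and 9 of the 12 receptors are open symbols, between -0.47 and 0.54.

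Of the 12 receptors tested, 2 (16.7%) were higher, a share near the 20.1% of all genes, and 1 was lower. Xcr1, the receptor of cross-presenting dendritic cells, was at 2.79, 1.19, 1.82, 1.32 and 1.80 CPM in WT and at 5.44, 7.32, 4.23, 6.70 and 5.11 CPM in KD tumours (log2 fold change 1.70, SE 0.23, adjusted p = 0.000252). Cxcr6, a receptor of effector and resident T cells, was at 6.05, 3.81, 3.55, 2.60 and 2.30 CPM in WT and at 9.43, 9.08, 7.26, 9.72 and 9.24 CPM in KD tumours (log2 fold change 1.31, SE 0.22, adjusted p = 0.000821). The KD tumours lay above the WT tumours without overlap for both receptors.

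Ccr7, by which mature dendritic cells and naive T cells home to lymph nodes, was at 7.33, 4.77, 8.10, 5.20 and 3.35 CPM in WT and at 4.41, 2.02, 2.97, 4.31 and 2.94 CPM in KD tumours (log2 fold change -0.77, SE 0.25, adjusted p = 0.0268). Its groups overlapped, and the adjusted p was 0.0614 without WT replicate 1, 0.0762 without WT replicate 3, 0.0595 without KD replicate 2 and 0.0613 without KD replicate 5.

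The 9 receptors that did not pass held those of the highest level. Cx3cr1, a receptor of monocytes and macrophages, was at 65.2, 35.8, 50.7, 47.4 and 46.2 CPM in WT and at 49.9, 44.0, 33.4, 59.4 and 42.4 CPM in KD tumours (log2 fold change -0.09, SE 0.15). Cxcr4 was at 34.6, 26.7, 33.5, 23.8 and 22.4 CPM in WT and at 27.0, 22.6, 19.8, 28.3 and 26.0 CPM in KD tumours (log2 fold change -0.18, SE 0.13). Ccr2, the receptor of inflammatory monocytes, had 0.33 (SE 0.23), and the groups of all 3 genes overlapped.

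Cxcr3, the receptor of Cxcl9 and Cxcl10, was at 4.21, 2.16, 2.61, 1.99 and 1.41 CPM in WT and at 3.87, 3.73, 2.73, 3.99 and 3.48 CPM in KD tumours. Its log2 fold change was 0.54 (SE 0.25, adjusted p = 0.0962), and WT replicate 1, the highest of all 10 tumours, decided the call: without it the log2 fold change was 0.81 (adjusted p = 0.00959). Ccr1, a receptor of monocytes and neutrophils, had -0.28 (adjusted p = 0.0909; 0.0494 without KD replicate 4), Ackr3 had 0.35 (adjusted p = 0.173; 0.0428 without KD replicate 3), Ackr2 had -0.36, Ccr8, a receptor of regulatory T cells, had -0.47, and Ccr10 had -0.02. Ackr1, Ackr4, Ccr9, Cxcr2 and Cxcr5 were too low to test, with means from 0.106 CPM (Ackr4 in KD) to 0.453 CPM (Ackr1 in KD).

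Levels of different genes can be set side by side per kilobase of exon. On that scale the ligands of highest mean level in WT tumours were Cxcl10 at 160, Ccl2 at 137, Ccl5 at 134, Ccl8 at 107 and Cxcl9 at 83.7 CPM per kilobase. In KD tumours the same 5 led, Cxcl10 at 299, Ccl5 at 291, Ccl8 at 281, Cxcl9 at 250 and Ccl2 at 209 CPM per kilobase. Among receptors Cxcr4 led at 15.6 in WT and 13.7 in KD, with Cx3cr1 at 10.9 and 10.2 and Ccr1 at 6.53 and 5.33 CPM per kilobase. In cultured WT cells Ccl2 was at 54.8, Ccl7 at 18.2 and Cxcl10 at 16.7 CPM per kilobase, and in KD cells Ccl2 was at 74.1, Ccl7 at 44.9 and Cxcl10 at 33.4 CPM per kilobase.

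Ligands and receptors were then paired by textbook assignment, which gave 30 pairs with both genes in the table and 20 with both tested in tumours. In 1 pair, Xcr1 with Xcl1, both genes rose. The ligand rose and the receptor did not pass in 9 pairs, among them Cxcr3 with Cxcl9 and Cxcl10, Ccr2 with Ccl2 and Ccl7, and Ccr1 with Ccl3, Ccl5 and Ccl7. In 7 pairs neither passed. The 3 remaining pairs were Cxcr6, which rose beside Cxcl16, which did not pass; Ccr7, which fell beside Ccl21a, which rose; and Cx3cr1, which did not pass beside Cx3cl1, which fell. Cxcl1 and Cxcl13 rose while their receptors Cxcr2 (0.152 CPM in WT and 0.178 CPM in KD) and Cxcr5 (0.189 and 0.158 CPM) were too low to test. Ccl27a, paired with Ccr10, is among the ligands of the 9 pairs. Ccl21a, Cxcl13 and Ccl27a entered the test only through their KD tumours, so their rise in these pairs is given as a value only.

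**Figure D3:**
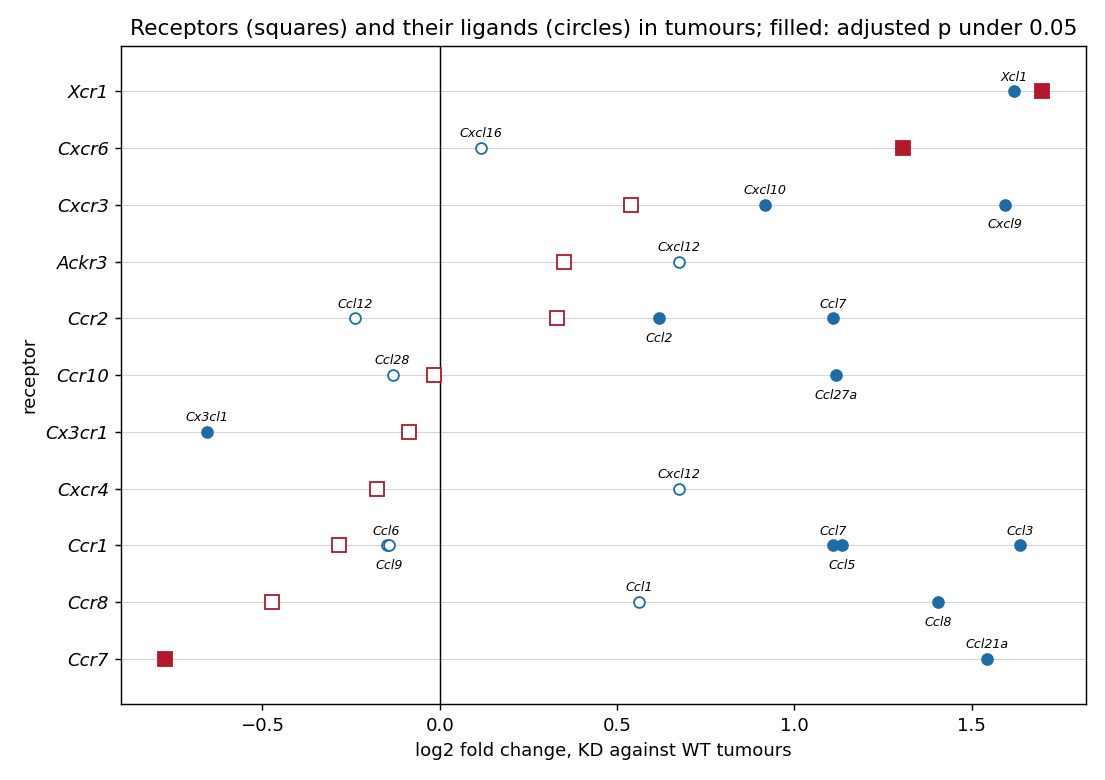
Log2 fold change of KD against WT tumours (x axis) for each tested receptor (squares, 1 row each) and its tested ligands (circles on the same row); filled symbols passed at an adjusted p under 0.05. The ligands of Cxcr3 and Ccr1 that passed lie to the right of their receptor, Xcr1 and Xcl1 lie close together at 1.70 and 1.62, and Ccr7 at -0.77 lies opposite Ccl21a at 1.54. Ccl21a and Ccl27a entered the test only through their KD tumours.

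The markers of leukocytes that differed between the tumours raise the question of how members stood relative to them. In each tumour the log2 ratio of a member's count to the count of Ptprc, each plus 0.5, was taken for the 25 members under 1 CPM in culture and at 1 CPM or more in tumours, and group means were compared by an exact permutation test (two-sided, over every split of the 10 tumours, smallest possible p 0.00794). Ptprc itself was at 59.5, 39.5, 59.6, 46.8 and 41.7 CPM in WT and at 92.0, 94.7, 76.6, 124 and 123 CPM in KD tumours, so a gene with no change of its own is lower in this ratio. Over all 1690 genes at these levels, 65.6% were lower and 1.89% were higher relative to Ptprc after Benjamini-Hochberg adjustment over them, with a median difference of -0.88. Of the 25 members, 11 were lower and 4 were higher, with a median difference of -0.46, so that the lower share was below that of all such genes; adjusted over the 25 ratios, 11 were lower and 2 higher. The minimum of 1 CPM was set on the mean of all 10 tumours, and 3 members reached it only through the group where they were high: Ccl17 (2.23 CPM in WT and 0.659 CPM in KD), Cxcl13 (0.595 and 1.96 CPM) and Ccl21a (0.799 and 2.36 CPM). Without these, 10 of 22 were lower and 3 were higher.

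The members higher relative to Ptprc were Xcr1 (difference 0.67 on the log2 scale, exact permutation p = 0.0238, adjusted p over the 1690 genes = 0.0372), Cxcl9 (0.58, with the same p-values), Cxcl13 (0.64, exact p = 0.0317, adjusted p = 0.0471) and Ccl3 (0.59, with the same p-values as Cxcl13); Cxcl13 entered through its high KD group and is given as a value only. These calls changed when single tumours were left out: with 1 tumour left out and adjustment over the 25 ratios, Xcr1 did not pass in 7 of 10 fits (adjusted p up to 0.085) and Cxcl9 in 8 of 10 (up to 0.0916), and with all tumours Cxcl13 and Ccl3 had an adjusted p of 0.0529 over the 25. Xcl1, Cxcr6, Ccl8 and Ccl4 had differences of 0.54, 0.32, 0.41 and 0.27 and did not pass. Without KD replicate 4 Xcl1 (adjusted p = 0.022) and Ccl3 (0.0425) passed, and without WT replicate 1 Ccl8 (0.0397), Cxcl13 (0.0198) and Ccl3 (0.0496) did.

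The lower members included Ccl22 (-2.19) and Ccr7 (-1.81), each with an exact permutation p of 0.00794 and an adjusted p of 0.0156 over the 1690 genes. Ccl17 (-2.62) had the same p-values, but it entered through its high WT group, so its difference is given as a value only. The others were Ccr1 (-1.35), Ccl12 (-1.29), Cxcr4 (-1.22), Ccl6 (-1.22), Ccl9 (-1.20), Cx3cr1 (-1.14), Cxcl16 (-0.94) and Ccr2 (-0.71). Ccr2 did not pass without WT replicate 2 or 3 or KD replicate 1 (adjusted p = 0.0541 over the 25 for each). Ccl1 (0.018 without KD replicate 3), Cxcl14 (0.0361 without KD replicate 2) and Cxcr3 (0.0361 without WT replicate 5) passed as lower when a tumour was left out. Relative to the summed counts of 44 leukocyte markers, to which macrophage and monocyte genes give most, 10 members were higher and 7 were lower when adjusted over the 25 ratios. Adjusted over the 1657 genes at these levels outside the sum, 9 members were higher and 4 were lower, where 8.45% of those genes were higher and 10.1% were lower. The median difference was 0.34 over the members and -0.08 over those genes. The 10 higher include Cxcl13 and Ccl21a, the 7 lower include Ccl17, and the 9 higher include Cxcl13. These entered through the group where they were high and are given as values only. With adjustment over the 25, Xcr1 and Cxcl9 were higher, and Ccl22, Ccr7, Cxcr4, Ccl6, Cx3cr1 and Cxcl16 were lower, under both denominators. Both ratios use the same member counts, so the change of denominator shifts every difference by the same amount. Adjusted over all such genes, Ccl6 and Cxcl16 did not pass relative to the sum.

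**Figure D4:**
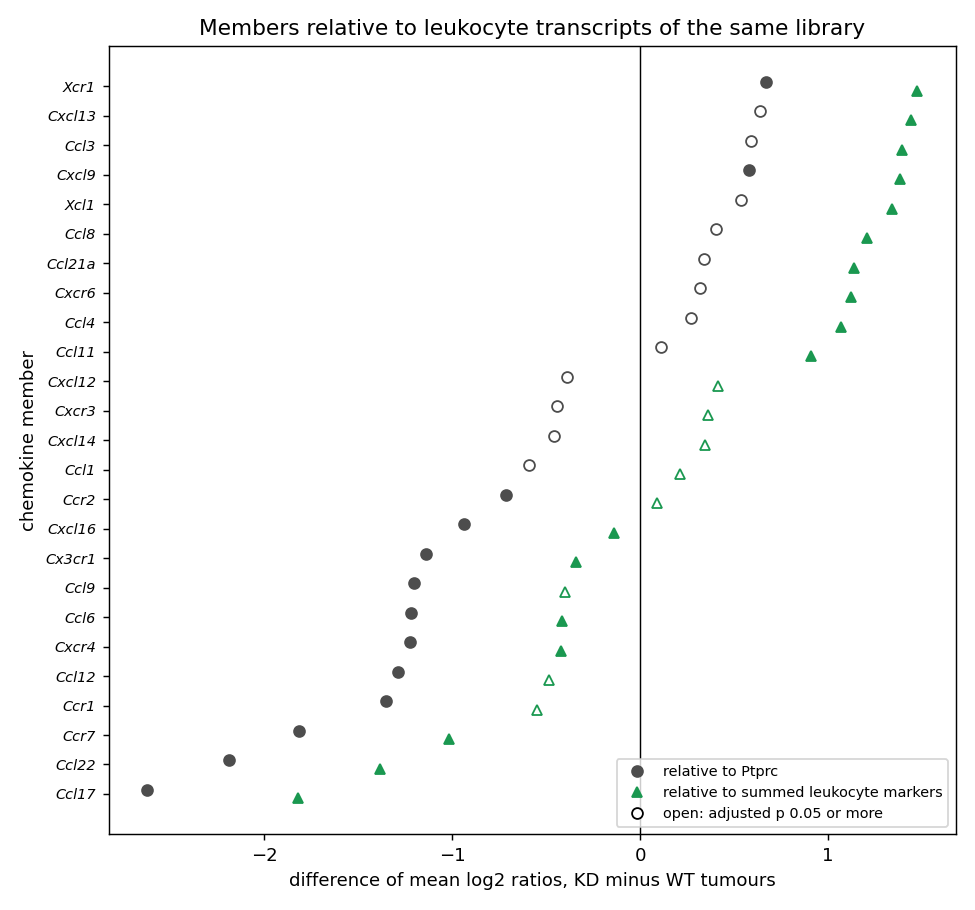
Difference between KD and WT tumours in the mean log2 ratio of each of 25 members to Ptprc (circles) and to the summed counts of 44 leukocyte markers (triangles); filled symbols had an adjusted p under 0.05 over the 25 members. Ccl17, Ccl22 and Ccr7 lie farthest to the left. The triangles lie to the right of the circles by the same distance for every member, because both ratios use the same member counts.

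Summed marker levels give the setting of these ratios. The NK cell markers summed to between 25.9 and 50.6 CPM in WT and between 83.0 and 116 CPM in KD tumours, without overlap. The T cell markers summed to between 49.3 and 116 CPM in WT and between 119 and 152 CPM in KD tumours, and the macrophage and monocyte markers to between 2833 and 5203 CPM in WT and between 3009 and 5015 CPM in KD tumours. Dendritic cell markers summed to between 51.0 and 74.8 CPM in WT and between 74.3 and 93.5 CPM in KD, with 2 of 5 higher. The same list summed to between 30.0 and 33.4 CPM in WT cultured cells, mostly from Clec9a, which was 1 of the 2 higher. Neutrophil markers had 1 higher (Csf3r) and 1 lower (S100a9) of 4 and summed to between 16.5 and 27.3 CPM in WT and between 23.1 and 37.1 CPM in KD. Most of that sum was Csf3r, with means of 16.1 CPM in WT and 26.7 CPM in KD tumours. The 1 B cell marker tested (Cd79b) did not pass, and of the epithelial markers Cdh1 alone was tested and did not pass. Lower were 3 of 7 endothelial, 2 of 6 fibroblast and 1 of 3 platelet and megakaryocyte markers. Over all genes tested in these tumours 20.1% were higher and 18.3% were lower. The fibroblast markers Pdgfra and Dcn are not clear of the tumour cells, with means of 209 and 168 CPM in WT cultured cells. Pdgfra was 1 of the 2 fibroblast markers that were lower. The part of each cell type in the chemokine differences was not tested.

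Genes that act beside the chemokines were taken from a list of G protein subunits, kinases and regulators of receptor signalling, proteases that shed membrane-bound ligands, and other chemoattractants. Of the 41 in the table, 23 were tested in cells. Of these 2 (8.70%) were higher and 1 (4.35%) was lower, beside 3.76% and 5.57% of all genes. The higher were Arrb1, an arrestin (log2 fold change 1.06), and Cd74, the surface receptor of Mif (3.32, from a mean of 0.114 to 1.22 CPM). Cd74 passed the filter on low counts through its KD libraries alone (0.737 to 1.74 CPM, against 0 to 0.210 CPM in WT). Its change in cells is thus given as a value only. The lower was Plcb3, a phospholipase (-0.32). In tumours 11 of the 41 were higher, 6 were lower and 24 did not pass, with a median log2 fold change of 0.10; these shares, 26.8% and 14.6%, are near the 20.1% higher and 18.3% lower of all genes. Those with the smallest p among the higher were Rgs1, which shortens G protein signalling (1.17, SE 0.16), Rarres2, the chemoattractant chemerin (0.95, SE 0.17), Adam10, a protease that sheds Cx3cl1 and Cxcl16 (0.58, SE 0.11), and Grk3, a receptor kinase (0.94, SE 0.20). Among the lower they were Cmklr1, the receptor of chemerin (-0.78, SE 0.14), the G protein subunits Gnai2 (-0.41, SE 0.088) and Gnb1 (-0.27, SE 0.075), and Mif (-0.44, SE 0.14). The effect differed between tumours and cells for 4 of 25 tested. It was higher in tumours for Adam10 (by 0.71), 4% of those tested beside 12.7% of all genes. It was lower for Arrb1 (by -1.22), Mif (by -0.68) and Cd74 (by -2.81), 12% beside 9.95% of all genes. The difference for Cd74 rests on its few counts in WT cells and is given as a value only.

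By position in the GENCODE M21 annotation of GRCm38, looked at after the values were seen, 7 of 12 tested ligands on chromosome 11 and 4 of 5 on chromosome 5 were higher in KD tumours, beside 20.1% of all genes, and the rest of both sets did not pass. Of the 5 on chromosome 5, Cxcl13, called higher, and Cxcl2, not called, entered the test only through their KD tumours. On chromosome 8, Ccl17, Ccl22 and Cx3cl1 were lower, beside 18.3% of all genes, and Ccl25 did not pass. On chromosome 9, 2 of the 7 tested receptors (28.6%) were higher, Cxcr6 and Xcr1, a share near that of all genes. Within the chromosome 11 run the neighbours Ccl9 and Ccl6 did not pass, while Ccl5 on one side and Ccl3 and Ccl4 on the other rose.

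Of the members, 13 receptors and 24 ligands also had guides in a pooled CRISPR screen of MC38 cells implanted in C57BL/6 and in Rag1-knockout mice, which lack T and B cells, with 1 library per host and therefore no test. The median over 4 guides of the log2 ratio of C57BL/6 to Rag1-knockout abundance ran from -0.69 (Cxcr2) to 0.57 (Ccr1) over the 13 receptors and from -0.73 (Ccl4) to 1.27 (Cx3cl1) over the 24 ligands, beside a median of 0.12 and a 5th to 95th percentile of -0.74 to 0.92 over all 4556 genes. The 4 guides to Cx3cl1 ran from -0.84 to 2.703.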

How the data were processed

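RNA was measured in 16 libraries (3 WT and 3 KD libraries of cultured cells, 5 WT and 5 KD libraries of tumours), and guides in 2 screen libraries, grouped by title and genotype labels. Both deposited tables hold whole-number read counts, per gene symbol or per guide, that the authors had not normalised, per the file headers and values. Per the submitters' processing notes, HTSeq 0.13.5, STAR 2.7.1a, SAMtools 1.3.1, FastQC 0.11.9 and Cufflinks 0.17.3 were among the tools, their roles unstated, and hg38 was the build, although the symbols are mouse. The build used and the strand setting are therefore unknown here.

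Fits over the whole table used edgeR 4.0.16 in R 4.3.3 (TMM, filterByExpr, robust glmQLFit and glmQLFTest, two-sided, Benjamini-Hochberg adjustment over all genes tested, threshold 0.05), separately for cells and tumours, and over all 16 libraries for the difference between their effects. SE is the log2 fold change over the root of F. CPM is counts scaled to the library total. Cells had less spread (root of the common dispersion 0.116) than tumours (0.159), which had more depth and more replicates. The fits were tested on simulated counts. Screen values are log2 ratios of CPM plus 1 for guides of 20 reads or more in all. Reads carry no molecular identifiers, so counts are not independent molecules. Alternatives were DESeq2 1.42.0 (test and size factors), library totals, no filter, a stricter filter (1 CPM, 10 counts), a block on replicate number, each library left out, and other offsets, denominators and cuts.

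Named genes were every member, with each library's value where it passed and reached 5 CPM in a group, and up to 4 related genes per direction. Members, lists, pairs and tests were chosen with earlier results of these data known. The adjustments of ratios over all genes at the same levels, library totals and the look at chromosomes were added after seeing the data. Protein sequences were not used here, and 1 gene that the rule for members finds is not reported here; it stays in the fits and in no count of members.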

Additional observations from a re-analysis of the deposited data

Results flagged for a closer look

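The level of each member tested in tumours was looked at in the 2 tumour groups of 5 for a library that stands apart from the other 4, and 8 of 78 groups held one, where chance gives about 1 in 20. WT replicate 1 was high for Ccl5 (179 CPM) and for Ccl8 (95.05 CPM), WT replicate 4 was high for Ackr2 (0.713 CPM) and WT replicate 5 was high for Cxcl2 (0.848 CPM). KD replicate 3 was low for Ccl4 (10.04 CPM) and for Cxcr6 (7.26 CPM), and KD replicate 4 was high for Ccr10 (2.93 CPM) and for Ccr8 (1.07 CPM). For Ccl5, Ccl8, Ccl4 and Cxcr6 the WT and KD groups did not overlap with these libraries included.

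For 2 ligands the KD effect in tumours differed from that in cells by a test of the difference itself (edgeR, adjusted over all genes). Cxcl1 had a difference of 1.09, with a rise in both settings. Cx3cl1 had a difference of -1.16, with a fall in tumours and a value of 0.52 in cells that did not pass.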

How the results depend on the processing

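The fold changes of named members kept their direction under every alternative in which they passed, and no scaling moved the median of all genes by over 0.1. With a library left out, 2 to 6 members were higher in cells (290 to 1531 genes called in all, 1111 in the full fit), 16 to 19 higher and 3 to 5 lower in tumours (4069 to 5833 genes), and 0 to 2 lower in the difference between tumours and cells (1667 to 3359 genes, 2850 in the full fit). Relative to Ptprc, 0 to 5 members were then higher and 10 to 12 lower. Adjusted over all 1690 genes at these levels 4 were higher. Relative to summed leukocyte markers 10 were higher and 7 lower (9 and 4 when adjusted over all such genes). Ccl17, Cxcl13 and Ccl21a, which entered through 1 group, were left in the sets tested. Ccr2 (0.091) turned from lower to higher relative to the sum. With a cut of 5 CPM in culture, 5 ligands counted as expressed (Ccl2, Ccl7, Ccl25, Cxcl1 and Cxcl10) and 0 were lower in tumours, all having positive fold changes in edgeR and DESeq2.

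Replicate numbers did not pair the libraries: the correlation of same-numbered WT and KD libraries was -0.19 to 0.05 for cells and -0.20 to 0.16 for tumours. With a replicate block 508 genes were called in cells, and Ccl2 in cells (adjusted p = 0.0662) and Ccl27a in tumours (0.111) no longer passed; no other call of a member was lost. Leaving a library out of a cell group lowers the residual degrees of freedom. Members under about 1 CPM rest on few counts.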
